A study of Mus musculus with 9 samples.

Results

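Microglia expressing the R47H variant of human TREM2 were compared with microglia expressing its common variant (CV). The comparison took 6 of the 9 arrays of the series, 3 from R47H mice and 3 from CV mice, 1 array per mouse. All mice were 8.5 months old, carried the 5XFAD transgenes, which cause amyloid plaques to form, and had no mouse TREM2. A further 3 arrays came from mice of the same kind with no human TREM2 (KO), and they are given beside each gene as the level without the receptor. Mouse 1 of each group was the only female among 3. The sources used here do not give how the human gene was introduced, what drives it or how many lines were used. Genes were taken as probe sets with exactly 1 gene symbol, the brightest per gene, which gave 19938 genes from 35556 probe sets. Of these, 10795 were tested, those whose mean over the 9 arrays reached the median of all probe sets (5.31 on the log2 scale).

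TREM2 is a surface receptor of microglia that binds lipids, lipoproteins and amyloid and signals through the adaptor Tyrobp and the kinase Syk. Around amyloid plaques it is needed for microglia to leave their resting, homeostatic state and take up the disease-associated (DAM) state, marked by genes of lipid handling, lysosomes, phagocytosis and adhesion. R47H exchanges an arginine for a histidine in the ligand-binding domain, weakens ligand binding and is a known risk variant for Alzheimer's disease.

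The sorted cells carried their label's markers. The 13 measured markers of microglia and macrophages had a mean log2 level of 11.33, 11.36 and 11.32 in the R47H mice and 11.24, 11.24 and 11.21 in the CV mice, far above the filter. The adaptor Tyrobp read 12.73 ± 0.064 (mean ± SD of log2 values, n = 3) in R47H against 12.72 ± 0.057 in CV and differed by 0.0076 ± 0.073 (± SE; limma adjusted p = 0.98). The mouse Trem2 probe set stood at 7.28 ± 0.026 in R47H and 7.15 ± 0.089 in CV, and whether it sees the human gene is not known here, so it checks no label. Some markers of other cell types differed between the groups. Oligodendrocyte markers averaged 7.14, 6.71 and 6.97 in the R47H mice against 5.66, 5.91 and 5.56 in the CV mice and 6.26, 5.97 and 5.58 in the KO mice. Neutrophil markers averaged 5.87, 6.26 and 6.61 in R47H, 7.37, 8.05 and 7.87 in CV and 5.41, 5.74 and 8.0 in KO, where KO mouse 3 lay apart from the other KO mice. In RNA from sorted cells in bulk, fewer cells of a type and less RNA per cell cannot be told apart.

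R47H and CV microglia differed in 86 of 10795 genes, 0.797% of those tested, with 41 higher and 45 lower in R47H (limma, Benjamini-Hochberg adjusted p under 0.05). By size, the genes lower in R47H were led by the lysosomal proton pump subunit Atp6v0d2, the ubiquitin ligase Mid1, fibronectin (Fn1) and periostin (Postn), and the genes higher by Apod, S100b, Cmtm5 and Sparcl1. By adjusted p, Atp6v0d2, Myof, Fn1 and Emp1 came first among the lower genes and Slain1, Aplp1, Ermn and Sez6l2 among the higher. A log2 difference of 1 or more was seen for 40 of the 86, 22 of them higher and 18 lower. For 83 of the 86 the 3 R47H and 3 CV values did not overlap, against 14.9% of all tested genes. The 86 were called on these same values, so this separation is largely built in and gives the calls no further support. Across all tested genes the median difference was 0.010, 53.4% of differences were positive and 46.5% negative, and 12.4% had an unadjusted p under 0.05. For 6 lower genes (Fn1, Postn, Clec4d, Emp1, Taf4b and Snora41) the R47H mean, and for 10 higher genes (Sparcl1, Ermn, Scd1, Fa2h, Gnai1, Cpe, Slain1, Gprc5b, Grm3 and Abcg3) the CV mean, lay below the filter. These genes reached the test through a higher group, and no fold is given for them.

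The count depended on single arrays. It was 9 without R47H mouse 1, 37 without R47H mouse 2 and 24 without R47H mouse 3, and 15, 23 and 9 without CV mice 1, 2 and 3. Without KO mouse 3, which enters only through the shared spread and the sex term, it was 132, of which 81 were among the 86. Atp6v0d2, Fn1, Anpep, Emp1, Myof, Anxa2 and Ahnak2 kept their calls without any 1 of the 9 arrays, the other 79 lost theirs without at least 1, and all 86 genes kept their direction in each of those fits. No gene of the 41 higher kept its call in all 9. With the neutrophil marker score as a covariate 5 of the 86 were called, Atp6v0d2, Fn1, Clec4d, Gpnmb and Myof, and the median SE of the 86 was 0.16. With the oligodendrocyte marker score as a covariate 0 were called (limma, 344 at an unadjusted p under 0.05), while the median SE of the 86 rose from 0.12 to 0.32. Both scores separate R47H from CV mice by themselves, and the oligodendrocyte score contains 5 of the 41 higher genes.

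**Figure D1:**
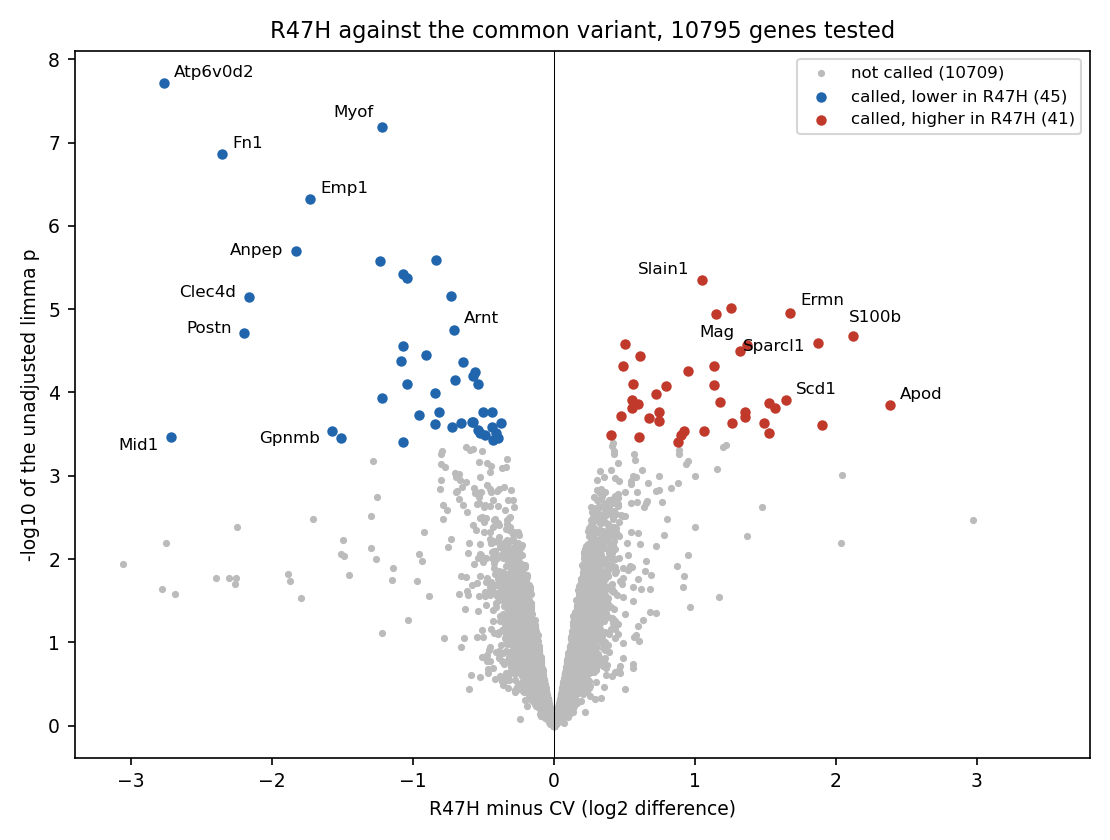
Each point is 1 of 10795 genes, with the R47H minus CV log2 difference on the x axis and -log10 of the unadjusted limma p on the y axis. The 45 called genes lower in R47H (blue) reach -2.77 at Atp6v0d2, and the 41 higher (red) reach 2.38 at Apod.

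In the proton pump and lysosome lists Atp6v0d2 was the only gene called. Atp6v0d2 (probe set 10511779) encodes a subunit of the membrane sector of the vacuolar proton pump, which acidifies lysosomes, and is abundant in osteoclasts and some macrophages. Its log2 values were 6.37, 6.37 and 6.21 in R47H, 9.34, 9.13 and 8.79 in CV and 4.93, 4.13 and 4.45 in KO. No R47H value came near a CV value, and every R47H value lay above every KO value. The R47H mice were 6.82-fold lower than the CV mice (-2.77 ± 0.14, limma adjusted p = 0.000208). None of the other 16 tested pump subunits was called, and they ranged from -0.19 (Atp6v1b2) to 0.14 (Atp6ap1). The subunit Atp6v0d1, the widely expressed counterpart of Atp6v0d2, differed by 0.0037 ± 0.088. Of the 28 tested lysosomal hydrolases and membrane proteins 0 were called (limma, median 0.081). An unadjusted limma p under 0.05 was found for 7 of the 28, against 12.4% of all tested genes. The largest differences were -0.35 for the galactosidase Gla, 0.34 for Glb1 and 0.33 for the glucosidase Gaa.

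Genes of adhesion and the extracellular matrix followed. Of 22 tested members of the integrin and matrix list 6 were called, all lower in R47H, against 0.417% of tested genes lower, and 2 of the 6, Fn1 and Postn, reached the filter through CV. Fn1, the matrix protein fibronectin and also a monocyte marker, read 4.98, 5.03 and 4.72 in R47H, 7.65, 7.17 and 6.96 in CV and 5.08, 4.85 and 5.24 in KO. All R47H and KO values lay below the filter value of 5.31, so the gene entered the test through its CV level. The log2 difference was -2.35 ± 0.15 (adjusted p = 0.000492). Postn, the matrix protein periostin, read 4.96, 5.65 and 4.76 in R47H, 7.79, 7.18 and 7.01 in CV and 4.53, 4.56 and 4.94 in KO, with R47H mouse 2 the highest outside CV. The R47H and KO means lay below the filter here too, and the log2 difference was -2.20 ± 0.26 (adjusted p = 0.0121). The hyaluronan receptor Cd44 (-1.22 ± 0.19), the intermediate filament vimentin (Vim, -1.07 ± 0.13), the integrin Itgax (-0.96 ± 0.16) and the membrane-bound protease Mmp14 (-0.54 ± 0.078) were the other called members, with adjusted p from 0.0134 (Vim) to 0.0363 (Itgax). Vim read 9.06, 9.21 and 8.86 in R47H, 10.31, 9.99 and 10.05 in CV and 8.45, 7.93 and 8.37 in KO, so that R47H lay between KO and CV without overlap. Cd44 read 6.34, 5.91 and 6.06 in R47H, 7.53, 7.23 and 7.22 in CV and 5.96, 5.29 and 6.17 in KO, and its R47H values overlapped the KO range. Without a call, the integrin subunits Itga4 and Itgal stood at -0.80 ± 0.15 and -0.79 ± 0.20 (adjusted p = 0.0592 and 0.151), while Itgam, which encodes the CD11b used in the sort, stood at 0.22 ± 0.064 (adjusted p = 0.211) and Itgb5 at 0.35 ± 0.082. The median of the list was -0.19, against 0.010 over all tested genes. It was -0.094 without CV mouse 1, -0.11 without CV mouse 3 and -0.031 over its 25 measured members.

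Other called genes lower in R47H belong to no list. Myof, myoferlin, a protein of membrane repair and vesicle fusion, had values of 5.53, 5.33 and 5.21 in R47H, 6.81, 6.46 and 6.45 in CV and 5.06, 4.90 and 4.73 in KO. The CV mice lay above all other mice. Its difference was -1.22 ± 0.073 (limma adjusted p = 0.000354). Emp1 read 4.92, 4.47 and 4.93 in R47H, 6.83, 6.32 and 6.37 in CV and 4.84, 4.85 and 4.78 in KO, with all R47H and KO values below the filter, and differed by -1.73 ± 0.13 (adjusted p = 0.00129). The surface aminopeptidase Anpep, known as CD13, read 5.76, 5.29 and 5.36 in R47H, 7.43, 7.22 and 7.26 in CV and 5.06, 5.58 and 5.03 in KO and differed by -1.83 ± 0.17 (adjusted p = 0.00403). R47H mouse 1 was the highest R47H mouse for Anpep and still lay below every CV mouse. The adhesion receptor Adgre5, known as CD97, was lower by 1.51 ± 0.27 (adjusted p = 0.0456, and 0.0652 with mouse number as a block). Chosen after their values were seen, the calcium-dependent membrane binder Anxa2 (-1.04 ± 0.10) and the large scaffold proteins Ahnak (-0.91 ± 0.12) and Ahnak2 (-0.84 ± 0.078) also fell, with adjusted p of 0.00479, 0.0156 and 0.00403. So did the cytoskeletal proteins Iqgap1 (-0.70 ± 0.10) and Gas2l3 (-0.73 ± 0.077). Crip1, a small LIM domain protein, stood at -1.07 ± 0.19 (adjusted p = 0.0498). Mid1, a ubiquitin ligase bound to microtubules, had the second largest difference, -2.71 ± 0.48, but spread widely. It read 6.30, 7.66 and 6.51 in R47H, 9.30, 9.73 and 9.60 in CV and 7.96, 6.61 and 8.51 in KO, and R47H mouse 2 lay over 1 log2 unit above the other R47H mice. Its adjusted p was 0.0456, and 0.0617 with mouse number as a block.

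**Figure D2:**
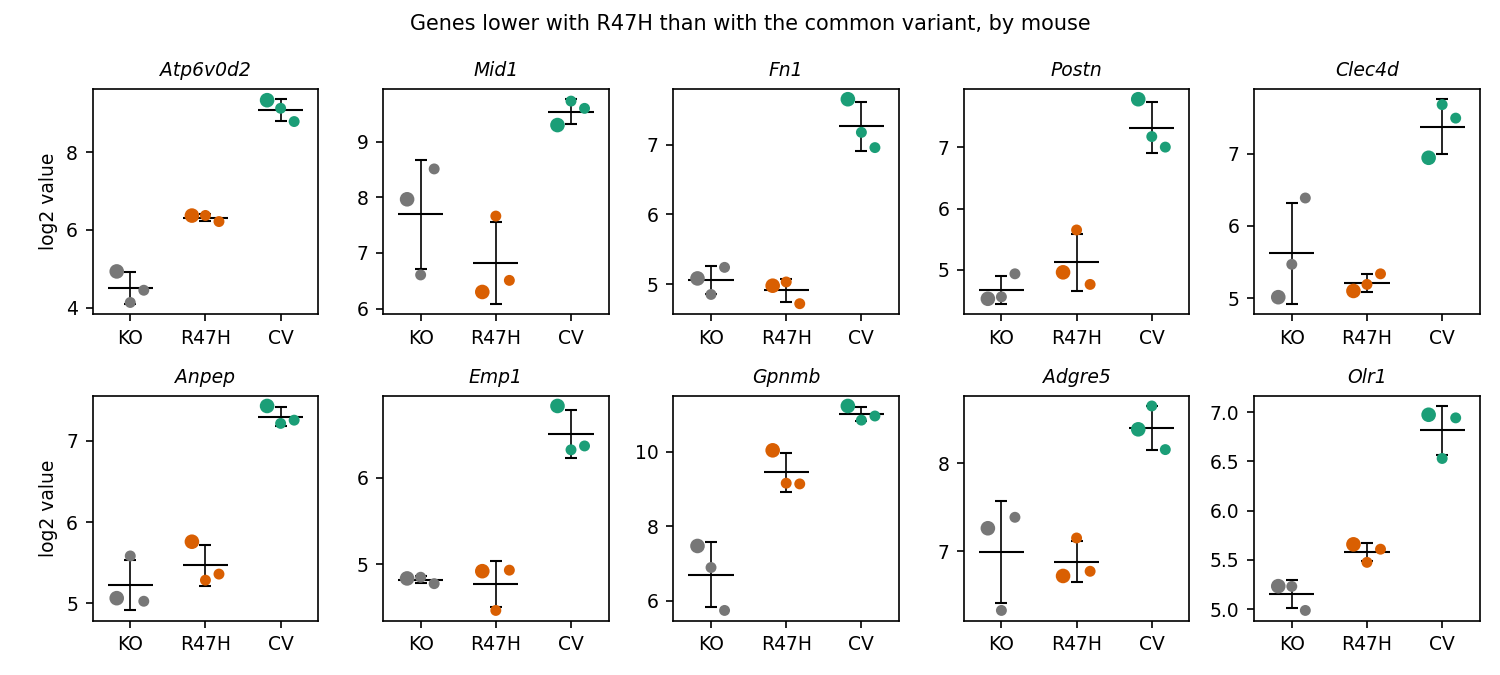
Log2 values of the 10 called genes with the largest differences lower in R47H, by group (KO, R47H, CV), each panel on its own scale. Each point is 1 mouse, the larger point is the female, and the bar and whiskers are the mean and SD over 3 mice. For Atp6v0d2 and Gpnmb the R47H mice lie between the KO and CV mice, and for Fn1 and Emp1 the R47H and KO mice all lie below 5.31.

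Most genes that DAM induce in the TREM2-dependent stage had negative differences. Of its 27 tested members 3 were called, all lower, against 0.417% of tested genes lower, and 18 of 27 differences were negative, against 46.5% (median -0.15, against 0.010 over all tested genes). The list comes from published mouse models and was chosen with earlier results of these data known. Gpnmb (probe set 10538187), a membrane glycoprotein known from foamy macrophages, read 10.04, 9.16 and 9.14 in R47H, 11.24, 10.86 and 10.97 in CV and 7.47, 6.89 and 5.74 in KO. The groups did not overlap in either direction, and R47H was 2.97-fold lower than CV (-1.57 ± 0.27, limma adjusted p = 0.0426). Itgax, known as CD11c, read 8.46, 8.33 and 8.26 in R47H, 9.78, 9.15 and 9.0 in CV and 8.11, 7.0 and 7.18 in KO. All R47H values lay above all KO values and below all CV values, and the difference was -0.96 ± 0.16 (adjusted p = 0.0363). The lectin galectin-3 (Lgals3) read 9.11, 8.46 and 8.83 in R47H, 9.74, 9.36 and 9.47 in CV and 8.44, 8.45 and 8.18 in KO, with R47H mouse 1 at the highest R47H value, and differed by -0.72 ± 0.12 (adjusted p = 0.0411, and 0.0544 with mouse number as a block). These 3 calls held in 2, 3 and 2 of the 9 fits that left out 1 array. Members that did not pass included the fatty acid carrier Fabp5 (-0.78 ± 0.15, adjusted p = 0.0754), the NADPH oxidase subunit Cybb (-0.75 ± 0.21, 0.213), the beta-glucan receptor Clec7a (-0.62 ± 0.15, 0.139), lipoprotein lipase (Lpl, -0.54 ± 0.16, 0.234) and the receptor tyrosine kinase Axl (-0.44 ± 0.18, 0.381). Other members of the same list differed little or in the other direction. The growth factor Igf1 read 9.06, 8.35 and 8.27 in R47H, 8.66, 8.19 and 8.37 in CV and 8.04, 7.6 and 7.52 in KO, so R47H and CV overlapped while the KO mice were lower, and its difference was 0.15 ± 0.094 (adjusted p = 0.564). The cystatin Cst7 stood at 0.23 ± 0.10, the growth factor Csf1 at 0.040 ± 0.11, the tetraspanins Cd9 and Cd63 at -0.16 ± 0.081 and -0.011 ± 0.087, and the transcription factor subunit Hif1a at 0.28 ± 0.074. Over single arrays left out, the list median ran from -0.16 to -0.11. With the oligodendrocyte marker score as a covariate it was 0.016, and with the neutrophil score -0.061. The early DAM genes, which do not need TREM2, had 0 of 11 called (limma, 1 at an unadjusted p under 0.05) and a median of 0.021. Apoe, the lipoprotein of the brain's lipid transport, stood at -0.11 ± 0.077 and the lysozyme gene Lyz2 at -0.31 ± 0.12.

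Of 22 tested phagocytic and lectin receptors 2 were called, lower in R47H, against 0.417% of tested genes lower (median -0.048). Clec4d, a C-type lectin receptor of myeloid cells, read 5.10, 5.19 and 5.34 in R47H, 6.95, 7.68 and 7.5 in CV and 5.01, 5.47 and 6.39 in KO. KO mouse 3 stood above the other KO mice, and every CV mouse stood above the rest. The R47H mean lay below the filter, and the log2 difference was -2.17 ± 0.23 (adjusted p = 0.00641). Olr1, the scavenger receptor LOX-1 for oxidised lipoproteins, read 5.66, 5.48 and 5.61 in R47H, 6.97, 6.53 and 6.94 in CV and 5.23, 5.23 and 4.99 in KO, with R47H just above KO and well below CV (-1.23 ± 0.12, adjusted p = 0.00403). Both receptors are also known from neutrophils or monocytes, and markers of these cells were lower in the same mice. Of 11 tested neutrophil markers 10 had all R47H values below all CV values, against 6.17% of all tested genes, and the median difference was -2.27. Over all 17 measured neutrophil markers the median was -1.85. No neutrophil marker was called (limma, 10 at an unadjusted p under 0.05), and the KO mice spread widely. S100a8 read 9.22, 10.53 and 11.28 in R47H, 12.22, 12.79 and 12.83 in CV and 7.84, 9.37 and 12.74 in KO. The difference of S100a8 was -2.27 ± 0.80 (adjusted p = 0.301). Without KO mouse 3 it was called (adjusted p = 0.00742), as were S100a9, Camp, Ngp and Lcn2. Of 8 tested monocyte markers 1, Fn1, was called lower, against 0.417% of tested genes, and Fn1 reached the filter through CV. Of the 8 markers 7 were negative (median -0.77), among them Chil3 at -2.75 ± 0.77 and S100a6 at -2.25 ± 0.58. Over all 9 measured monocyte markers the median was -0.61. The monocyte receptor Ccr2 stood at -0.32 ± 0.21 (adjusted p = 0.591). Neutrophils and monocytes carry the CD45 and CD11b used in the sort. With the neutrophil score as a covariate Clec4d differed by -1.51 (adjusted p = 0.0287), Olr1 by -1.37 (adjusted p = 0.0514), Atp6v0d2 by -2.67 (adjusted p = 0.00847) and Gpnmb by -2.35 (adjusted p = 0.00847). Lower genes described above moved both ways in that fit. Cd44 shrank from -1.22 to -0.68, Crip1 from -1.07 to -0.52, Adgre5 from -1.51 to -1.02 and Mid1 from -2.71 to -1.91. Anpep grew from -1.83 to -2.04 and Myof from -1.22 to -1.31. Cd44, Crip1, Adgre5, Mid1 and Anpep were not called in that fit. All 45 genes lower in R47H kept their direction there, at a median of -0.72 against -0.84. The neutrophil score separates R47H from CV mice by itself, so this fit cannot part genotype from these cells. The part of neutrophils and monocytes in the lower genes was not tested.

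The remaining genes lower in R47H held signalling and transcription genes. Fgr, a Src-family kinase of myeloid cells, read 6.89, 6.62 and 6.44 in R47H, 7.99, 7.76 and 7.41 in CV and 6.79, 6.15 and 6.20 in KO, below every CV mouse in R47H and KO alike (-1.07 ± 0.11, adjusted p = 0.00479). Pdcd1, the checkpoint receptor PD-1, differed by -1.09 ± 0.14 (adjusted p = 0.017). Arnt, which pairs with HIF and aryl hydrocarbon receptor factors, read 7.33, 7.59 and 7.31 in R47H, 8.04, 8.15 and 8.17 in CV and 8.04, 8.25 and 8.13 in KO. Here the R47H mice stood below CV and KO alike, with a difference of -0.71 ± 0.084 (adjusted p = 0.0119). Also called, and chosen after their values were seen, were the transcription factor Bhlhe40 (-1.04 ± 0.15), the NF-kB pathway adaptors Tank (-0.84 ± 0.14) and Tnip1 (-0.44 ± 0.070), the phospholipase Pla2g2d (-0.56 ± 0.078) and the TGF-beta pseudoreceptor Bambi (-0.57 ± 0.10). Of the 45 genes 36 were also higher in CV than in KO and 2 also higher in R47H than in KO, where 1.21% and 0.0834% of tested genes were called. Their median was 0.85 in CV minus KO and 0.081 in R47H minus KO, in comparisons that share arrays with R47H minus CV.

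For a look at the regulatory sequence of genes that moved together, the first promoter listed in RefSeq (GRCm38.p6) was read for 34 of the 45 lower genes, 30 of the 41 higher genes and 8693 tested genes. The 250 bases before each start were searched on both strands for 5 motifs, chosen after the values were seen. The pattern TGANTCA, an AP-1 site with any base allowed in the middle, was in 5 of 34 lower genes (14.7%), 1 of 30 higher genes (3.33%) and 4.21% of all. This is looser than the AP-1 site itself. The match of the higher gene, Tmem154, is TGAATCA, and that of the lower gene 4931406H21Rik is TGATTCA. The E-box CACGTG, which the MiT/TFE factors of lysosome genes bind, was in 0 of 34, 2 of 30 (6.67%) and 8.71%. The PU.1 motif GAGGAAGT was in 0 of 34 and 0 of 30, against 2.54%, and the cyclic AMP response element TGACGTCA in 1 of 34 (2.94%) and 1 of 30 (3.33%), against 2.68%. The pattern CTGGNAC, a MYRF core with any base allowed at N, was in 11 of 34 (32.4%) and 9 of 30 (30%), against 15.3%. These matches are descriptions of letters and not of binding. The promoters of 4 lower genes named above that hold TGANTCA are shown, with each match in capitals. This pattern was taken because its share differs most between lower and higher genes among the 5.
Itgax (chr7:128129300-128129549, plus strand): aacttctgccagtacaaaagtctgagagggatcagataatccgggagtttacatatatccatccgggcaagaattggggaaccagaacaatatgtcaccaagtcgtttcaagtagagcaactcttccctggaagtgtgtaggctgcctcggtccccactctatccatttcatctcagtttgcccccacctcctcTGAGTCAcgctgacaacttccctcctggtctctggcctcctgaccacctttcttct
Olr1 (chr6:129507166-129507415, minus strand): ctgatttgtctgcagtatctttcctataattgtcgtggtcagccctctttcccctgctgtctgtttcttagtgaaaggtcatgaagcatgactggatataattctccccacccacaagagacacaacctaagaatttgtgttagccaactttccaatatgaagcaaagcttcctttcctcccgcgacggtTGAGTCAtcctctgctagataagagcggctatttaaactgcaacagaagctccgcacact
Anxa2 (chr9:69453433-69453682, plus strand): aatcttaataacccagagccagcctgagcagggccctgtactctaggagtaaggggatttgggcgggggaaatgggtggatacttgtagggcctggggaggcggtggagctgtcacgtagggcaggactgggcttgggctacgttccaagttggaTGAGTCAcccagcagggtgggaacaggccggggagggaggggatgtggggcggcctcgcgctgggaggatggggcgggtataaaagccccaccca
Emp1 (chr6:135362681-135362930, plus strand): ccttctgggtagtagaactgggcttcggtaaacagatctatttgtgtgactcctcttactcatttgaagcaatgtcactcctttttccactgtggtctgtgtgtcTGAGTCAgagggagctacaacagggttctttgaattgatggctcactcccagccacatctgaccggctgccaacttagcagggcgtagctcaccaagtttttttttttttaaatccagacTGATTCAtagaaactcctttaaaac
In Itgax the match begins 56 bases before the start, in Olr1 60 and in Anxa2 95, and Emp1 holds matches 145 and 25 bases before its start. The Emp1 match at 25 bases is TGATTCA, and the others shown are TGAGTCA.

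Among the genes higher in R47H, oligodendrocyte markers formed the clearest group. Of 8 tested markers 5 were called, all higher, against 0.38% of tested genes higher, with Ermn reaching the filter through R47H. All 8 had every R47H value above every CV value, against 8.74% (median 1.18). Over all 11 measured markers the 11 differences were positive. Ermn, a cytoskeletal protein of myelinating cells, read 6.91, 6.63 and 6.47 in R47H, 4.85, 5.36 and 4.78 in CV and 5.40, 5.01 and 4.75 in KO. The CV mice lay among the KO mice, and the CV and KO means lay below the filter. The log2 difference was 1.67 ± 0.19 (adjusted p = 0.00812). Mag, the myelin-associated glycoprotein, read 7.38, 7.21 and 7.28 in R47H, 5.99, 6.03 and 5.73 in CV and 6.62, 6.44 and 5.77 in KO and differed by 1.37 ± 0.17 (adjusted p = 0.0134). Mbp, the myelin basic protein, read 8.52, 8.0 and 8.10 in R47H, 7.21, 6.98 and 7.02 in CV and 7.99, 7.84 and 7.17 in KO, with R47H mouse 1 the highest (1.14 ± 0.15, adjusted p = 0.0181). The myelin protein Mobp and the tight junction protein Cldn11 differed by 1.14 ± 0.16 (adjusted p = 0.0235) and 1.53 ± 0.27 (adjusted p = 0.044, and 0.0568 with mouse number as a block). The other tested markers, Mal, Cnp and Mog, stood at 1.22 ± 0.22, 0.94 ± 0.18 and 0.83 ± 0.18 with adjusted p of 0.0517, 0.0707 and 0.106. KO mouse 1 had the highest oligodendrocyte level of the KO mice and KO mouse 3 the lowest, and each R47H mouse lay above all 6 other mice.

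Genes outside the marker lists behaved alike. Apod, a lipid-carrying apolipoprotein, read 9.13, 9.12 and 8.97 in R47H, 6.23, 7.28 and 6.57 in CV and 7.84, 8.14 and 6.69 in KO, and its 5.2-fold difference was the largest among higher genes (2.38 ± 0.37, adjusted p = 0.0327). CV mouse 2 lay above the other CV mice. The R47H mice were close together and above all others. Cmtm5 (1.90 ± 0.32, adjusted p = 0.0393, and 0.0544 with mouse number as a block), the matricellular protein Sparcl1 (1.87 ± 0.23), the desaturase Scd1 (1.64 ± 0.25), the carbonic anhydrase Car2 (1.57 ± 0.25) and the small heat shock protein Cryab (1.53 ± 0.24) rose as well. Sparcl1 read 6.93, 6.87 and 7.41 in R47H, 5.29, 5.36 and 4.94 in CV and 5.79, 5.61 and 4.90 in KO, and the KO and CV mice overlapped. The membrane glycoprotein Gpm6b (1.49 ± 0.25), the tubulin Tubb4a (1.35 ± 0.22), the fatty acid hydroxylase Fa2h, which makes myelin lipids (1.32 ± 0.17), and the G protein subunit Gnai1 (1.26 ± 0.21) were called with adjusted p from 0.0151 (Fa2h) to 0.039 (Gnai1). Of 26 tested members of the lipid list 2 were called higher, against 0.38% of tested genes. Scd1, which reached the filter through R47H, was 1 of the 2. The lipid droplet coat protein Plin3 was the other (0.60 ± 0.11, adjusted p = 0.0456, and 0.0599 with mouse number as a block). Chosen after their values were seen, Slain1 (1.05 ± 0.10, 0.00479), Aplp1, a relative of the amyloid precursor protein (1.25 ± 0.14, 0.00799), and Sez6l2 (1.15 ± 0.13, 0.00812) had the smallest adjusted p beside Ermn among the higher genes.

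Most astrocyte markers had positive differences as well. S100b, a calcium-binding protein of astrocytes and some oligodendrocytes, was the 1 called marker of 5 tested, against 0.38% of tested genes higher. S100b read 7.90, 7.86 and 7.83 in R47H, 5.77, 5.61 and 5.85 in CV and 7.13, 6.71 and 5.74 in KO. The R47H mice lay close together and above all others, and the difference was 2.12 ± 0.26, 4.35-fold (adjusted p = 0.0127). The glycolytic enzyme Aldoc stood at 1.16 ± 0.23 (adjusted p = 0.0777), Clu at 0.72 ± 0.21 and the glutamate transporter Slc1a2 at 0.58 ± 0.12. Over all 12 measured astrocyte markers 10 differences were positive, with a median of 0.46, and Aqp4, a defining marker, lay below the filter in each group (4.47 in R47H and 4.48 in CV). Of the neuron markers 1 of 12 reached the filter, Camk2a at 0.10 ± 0.079. Oligodendrocytes and astrocytes are not known to carry CD45 or CD11b, and the part of such cells, or of their RNA, in these differences was not tested. With the oligodendrocyte score as a covariate 29 of the 41 higher genes kept their sign, at a median of 0.32 against 1.06, and all 45 lower genes kept theirs, at a median of -0.66 against -0.84. The score averages the 11 measured oligodendrocyte markers, among them the 5 called ones, so a fall of those 5 is in part built in.

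**Figure D3:**
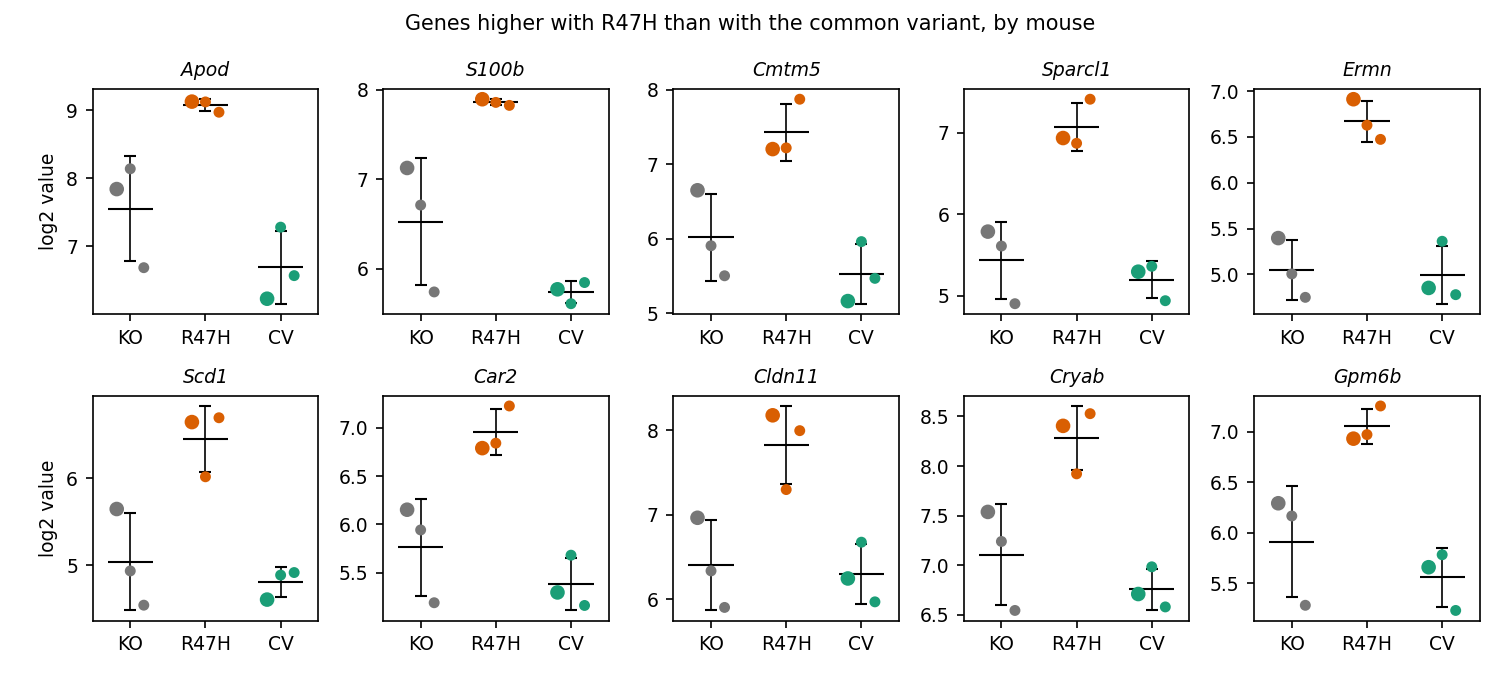
Log2 values of the 10 called genes with the largest differences higher in R47H, by group (KO, R47H, CV), each panel on its own scale. Each point is 1 mouse, the larger point is the female, and the bar and whiskers are the mean and SD over 3 mice. The R47H mice lie above all KO and CV mice in each panel.

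**Figure D4:**
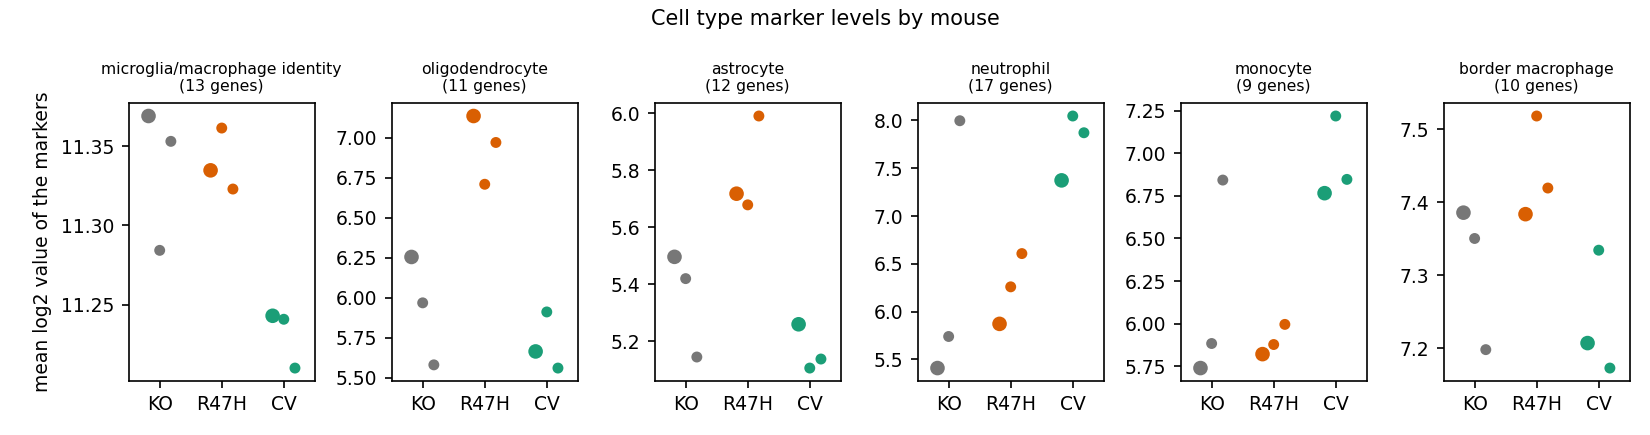
Mean log2 value of the measured markers of 6 cell types in each mouse, by group, each panel on its own scale, with the female as the larger point. Oligodendrocyte markers are highest in the R47H mice (6.71 to 7.14), and neutrophil markers are higher in the CV mice (7.37 to 8.05) than in the R47H mice (5.87 to 6.61).

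Most homeostatic microglial genes had small positive differences. Of 27 tested members 1 was called, Crybb1, against 0.38% of tested genes higher, and 23 differences were positive, against 53.4%, with a median of 0.093 against 0.010 over all tested genes. For 10 of the 27 every R47H value lay above every CV value, against 8.74%. The median was 0.21 with the neutrophil score and 0.25 with the oligodendrocyte score as a covariate. The 13 tested microglia and macrophage identity markers, a list that shares members with this one, leaned the same way. Of these 11 were positive (median 0.093), 8 had every R47H value above every CV value and 1 had every value below. Crybb1, a crystallin of resting microglia, read 9.61, 9.47 and 9.81 in R47H, 8.80, 9.05 and 8.87 in CV and 9.97, 9.99 and 9.80 in KO. R47H mouse 3 reached the KO range, and all R47H values lay above all CV values (0.72 ± 0.11, limma adjusted p = 0.0284). The purinergic receptor P2ry12 stood at 0.16 ± 0.089 (adjusted p = 0.534), Tmem119 at 0.15 ± 0.083, the fractalkine receptor Cx3cr1 at 0.093 ± 0.066 and the lectin Siglech at 0.24 ± 0.073 (adjusted p = 0.227). None of these 4 passed, and the fructose transporter Slc2a5 had the largest difference after Crybb1, 0.38 ± 0.13 (adjusted p = 0.281). Of the 41 genes higher in R47H 7 were also lower in CV than in KO and 2 also higher in R47H than in KO. In these comparisons 1.21% and 0.0834% of tested genes were called in either direction. The median of the 41 was -0.33 in CV minus KO and 0.84 in R47H minus KO, in comparisons that share arrays with R47H minus CV. Of 10 tested border macrophage markers 8 differences were positive. For 3 markers all R47H values lay above all CV values, against 8.74% of tested genes. For 2 markers, Clec4n and Ms4a7, all lay below, against 6.17%. The 1 called marker of the list, against 0.38% of tested genes higher, was Cd163, a haemoglobin scavenger receptor. Cd163 read 6.78, 6.64 and 6.64 in R47H, 6.21, 6.22 and 5.96 in CV and 6.49, 6.49 and 6.49 in KO (0.56 ± 0.080, adjusted p = 0.0235). Its KO values are identical to the last deposited digit. The chemokine Ccl8 read 7.32, 7.07 and 6.94 in R47H, 5.72, 5.89 and 5.65 in CV and 6.81, 7.23 and 6.25 in KO and was 2.55-fold higher (1.35 ± 0.22, adjusted p = 0.0346), with CV below the KO range. Also called, and chosen after their values were seen, were the iron exporter Slc40a1 (0.50 ± 0.062, 0.0134), the collagen receptor Mrc2 (0.55 ± 0.087, 0.0342), the phosphodiesterase Pde2a (0.74 ± 0.12, 0.039) and the guanylate-binding protein Gbp5 (0.68 ± 0.11, 0.0373). The mean border macrophage level was 7.38, 7.52 and 7.42 in R47H and 7.21, 7.33 and 7.17 in CV.

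Interferon response genes leaned upward without a call. Of 27 tested members 24 were positive and 0 were called (limma, 6 at an unadjusted p under 0.05), with a median of 0.35. The list mean was 7.78, 7.44 and 8.40 in the R47H mice and 7.5, 7.30 and 7.78 in the CV mice, so that R47H mouse 3 stood above the rest and the groups overlapped. Without R47H mouse 3 the median was 0.068, and without R47H mouse 2 it was 0.65. The largest members were Ifit2 at 0.92 ± 0.31, Oasl2 at 0.73 ± 0.31 and Ifi27l2a at 0.68 ± 0.25 (adjusted p = 0.281, 0.389 and 0.313). MHC class II genes, which present antigen, leaned downward, with 8 of 10 negative and 0 called (limma, 1 at an unadjusted p under 0.05, median -0.28). Without CV mouse 2 the median was -0.087, and with the neutrophil score it was 0.039. H2-Aa stood at -0.47 ± 0.29, H2-Ab1 at -0.34 ± 0.28 and the costimulatory gene Cd80 at -0.34 ± 0.14. Inflammatory cytokine genes and NF-kB targets had 0 of 27 called (limma, 6 at an unadjusted p under 0.05) and a median of -0.10, with Ccl5 at 0.96 ± 0.39, Il12b at 0.56 ± 0.29 and Il1b at -0.51 ± 0.25. Without R47H mouse 2, Ccl5 was called at 1.5 (adjusted p = 0.0446).

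None of 23 tested genes of the receptor's own signalling pathway was called (limma, 1 at an unadjusted p under 0.05, median 0.0076), and they ran from -0.26 (Malt1) to 0.15 (Akt1), apart from Dap at 0.24, which the list holds although it is not known to be part of the pathway. The kinase Syk stood at -0.039 ± 0.086, the phospholipase Plcg2 at 0.038 ± 0.068 and the phosphatase Inpp5d at 0.10 ± 0.072. The lipid list had Scd1 and Plin3 higher and 0 lower of 26, against 0.38% and 0.417% of tested genes. Fabp3 stood at 0.055 ± 0.10 and the transcription factor Pparg at -0.36 ± 0.11. Cholesterol synthesis genes had 0 of 16 called (limma, 2 at an unadjusted p under 0.05) and 12 of 16 negative (median -0.039), with Cyp51 at -0.36 ± 0.15 and the sterol sensor Insig1 at -0.33 ± 0.10. Of the MiT/TFE factors, Mitf stood at -0.12 ± 0.10, Tfe3 at -0.14 ± 0.067 and Tfeb at 0.00038 ± 0.062. A p above the threshold does not show that these genes are equal in the groups.

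**Figure D5:**
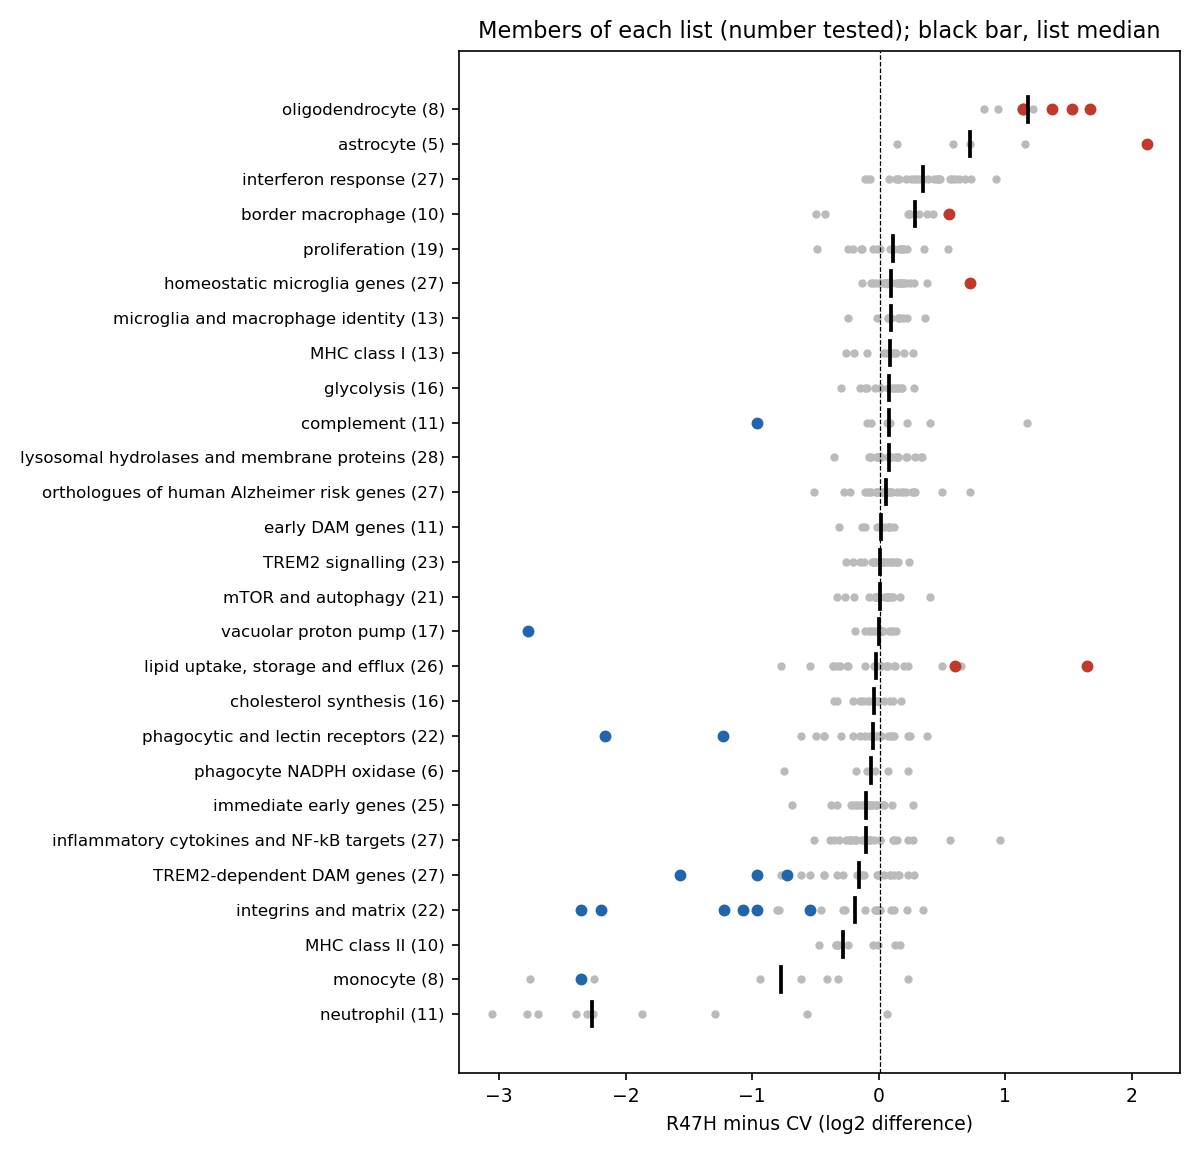
R47H minus CV log2 difference of each tested member (points) of the lists with at least 5 tested members, blue and red for called genes lower and higher in R47H and grey for the rest. The black bar is the list median and the dashed line the median of all tested genes (0.010). Oligodendrocyte markers lie highest (median 1.18) and neutrophil markers lowest (median -2.27).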

How the data were processed

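Perfused brains were dissociated and CD45+ CD11b+ cells sorted, and 2 ng of RNA was labelled for each array, per the labels' protocols. The deposited table holds 1 log2 value per probe set and array, a scale read from its range (1.31 to 13.9), with background correction and normalization not given in the sources used here. Identical values on 2 or more arrays occurred in 5674 of the tested genes and 15 of the 86 called. Array medians lay between 5.28 and 5.35, and correlations between arrays were 0.981 to 0.990. Array number limits the precision. No batch is given in the labels.

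Names came from the platform annotation, which gave 21789 probe sets with 1 symbol, 1621 with several and 12146 with none, and 0 symbols changed against RefSeq. limma 3.58.1 (R 4.3.3) was fitted to all 9 arrays with genotype and sex as terms (5 residual and 3.73 prior degrees of freedom), two-sided, and genes were called where the p adjusted by Benjamini-Hochberg was under 0.05. With 3 mice against 3 an exact permutation test cannot go below 0.10. In simulated data for R47H minus CV on 10795 genes, the fit recovered 80% of genes changed by 0.5 and 100% at 1, with 12 false calls among 202. These rates hold for the simulated spread only. In the measured data limma did not call Ttr at 2.97 or S100a8 at -2.27, so an uncalled gene can show a difference above 1.

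Same-numbered R47H and CV mice deviated together (correlations 0.22, 0.16 and 0.16 for mice 1, 2 and 3, without sex-chromosome genes), so a fit with mouse number as a block in place of sex was run beside the fit with sex, which gives every call above and has no block. The labels give the numbers but no shared litter or day, and mouse 1 is female in each group.

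The members and the 36 lists (576 genes, 530 measured, 434 tested) were chosen with earlier results of these data known. Named genes were the 15 largest called differences each way without overlap, fixed anchors, and called members of each list or otherwise its 3 largest. Of the anchors Spp1 was not analysed here. Alternatives varied the filter, covariates, scaling, probe sets and arrays. The block gave 83 calls.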

Additional observations from a re-analysis of the deposited data

How the results depend on the processing

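Among alternatives with 1 value per gene, all called genes still tested kept their direction except with the oligodendrocyte score as a covariate, where 74 of 86 did. The count of 86 became 48 with no filter on low values, 9 with the filter raised to the 75th percentile (30 of the 86 were then tested), 5 with the neutrophil score and 0 with the oligodendrocyte score (limma, 344 at an unadjusted p under 0.05). Leaving out 1 array gave 9 to 132. The other counts ran from 60 with no sex term to 119 with array weights. The replicate block gave 83 calls, 70 of them among the 86. Beside the lost calls named in the report, the block ended those of 4931406H21Rik, Tex30, Snora41, Ehd1, Arhgap26, Alas1, Nab2, Mlph, Clip3 and Ndrg2, and ended no other call among the 86. With the oligodendrocyte score 12 of the 41 higher genes turned negative: Gnai1 (-0.23), Tubb4a (-0.071), Gpm6b (-0.10), Cryab (-0.31), Cldn11 (-0.58), Car2 (-0.20), Scd1 (-0.042), Cmtm5 (-0.34), Apod (-0.30), Mobp (-0.053), Csrp1 (-0.20) and Cpe (-0.20). The cause was not tested. The score separates R47H from CV mice by itself, and the SE rose with it. It also contains 5 of the 41 higher genes, Mobp and Cldn11 among them, so their fall is in part built in. The neutrophil score separates the 2 groups by itself too, and the median SE of the 86 was 0.16 with it. Centring arrays on their medians gave 44 higher and 33 lower, against 41 and 45, with the median of all genes at 0.043.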

Other observations

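Other gene groups of microglia held few genes called between R47H and CV, which does not show that the rest are equal. The counts at an unadjusted p under 0.05 below stand against 12.4% of all tested genes. Glycolysis genes had 0 of 16 called (limma, 1 at an unadjusted p under 0.05) and a median of 0.081. Genes of mTOR signalling and autophagy had 0 of 21 called (3 at an unadjusted p under 0.05) and a median of 0.0059, with the autophagosome protein Map1lc3a at 0.41 ± 0.082 (adjusted p = 0.0792) and the autophagy receptor Sqstm1 at -0.33 ± 0.094. Orthologues of human Alzheimer risk genes had 0 of 27 called (7 at an unadjusted p under 0.05), with Clu at 0.72 ± 0.21, Cass4 at -0.51 ± 0.15 and the prion protein gene Prnp at 0.27 ± 0.068. Immediate early genes, known to respond to tissue dissociation, had 0 of 25 called (3 at an unadjusted p under 0.05), and 21 were negative (median -0.10), with Egr2 at -0.68 ± 0.15 (adjusted p = 0.106). The MHC class I list had 0 of 13 called (2 at an unadjusted p under 0.05) and proliferation genes 0 of 19 (2 at an unadjusted p under 0.05), with Tap1 at 0.27 ± 0.10 and Stmn1 at 0.54 ± 0.12. Complement genes had 1 of 11 called, Itgax, against 0.417% of tested genes lower, and 4 at an unadjusted p under 0.05. The component C4b stood at 1.17 ± 0.45 (limma adjusted p = 0.338). Of the NADPH oxidase list 0 of 6 were called (2 at an unadjusted p under 0.05).

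Markers of further cell types mostly lay below the filter. Of the endothelial, pericyte, T and NK cell, B cell, oligodendrocyte precursor, choroid plexus and erythrocyte markers, 3 of 10, 1 of 8, 2 of 12, 1 of 6, 2 of 8, 2 of 7 and 0 of 1 measured were tested. Limma called 0 of them, and 1, 0, 1, 1, 2, 1 and 0 had an unadjusted p under 0.05. The choroid plexus gene Ttr read 10.07, 8.96 and 11.29 in R47H, 7.35, 6.68 and 7.36 in CV and 6.03, 8.81 and 6.36 in KO, a difference of 2.97 ± 0.75 (limma adjusted p = 0.152). The VEGF receptor Flt1 stood at -0.80 ± 0.17 (adjusted p = 0.0915) and the precursor marker Olig1 at 0.88 ± 0.19 (adjusted p = 0.0951).

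Probe sets with several symbols or none, left out of the comparison, were tested apart. Of 5880 that reached the filter, limma called 0, with 488 at an unadjusted p under 0.05.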
